A study of Citrus maxima and Citrus sinensis with 8 samples.

Results

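The transcript levels of Al-treated (+Al) roots of Citrus grandis (L.) Osbeck were set against those of control roots of the same species, over the 18677 genes that averaged 1 FPKM or more in either group, of 30151 genes listed for the whole series. FPKM gives the fragments of a gene per kilobase of its transcript, relative to the depth of the library. The seedlings were 'Shatian pummelo', a pummelo that the study classes as Al-intolerant, and had been grown in sand and watered every day with acidic nutrient solution that held either 1 mM aluminum chloride (+Al) or 0 mM (control) for 18 weeks. The tips of new white roots were taken for RNA, and each library came from equal amounts of root of 5 seedlings mixed together, with 2 libraries of +Al roots and 2 of control roots. The solution of both groups was brought to the same low pH, and it gave nitrogen mainly as nitrate. The same treatment of Citrus sinensis, the Al-tolerant species of the study, gave the other 4 of the 8 libraries. Reads of both species were mapped to the C. sinensis genome, so a C. grandis read had to match that genome to be counted. Each group has only 2 libraries, and the p-values therefore measure the spread between pools of 5 seedlings, not between single plants.

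Aluminum becomes soluble in acidic soil and stops the growth of the root tip, where it binds to the pectin of cell walls, to membranes and to phosphate. Plants that withstand it release malate and citrate, which hold the metal in harmless complexes, through channels of the ALMT family and carriers of the MATE family, and they move Al away from sensitive cells with ABC and metal transporters. In Arabidopsis many of these transporters are switched on by the zinc finger protein STOP1. Because Al ties up phosphate and damages the tip, roots in Al also commonly show the marks of phosphate shortage and of slowed cell expansion.

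The deposited values are FPKM without read counts, so no counting error could be given, and the study's own read totals were not used here. FPKM summed to 713378 and 795854 in the +Al libraries and to 859570 and 830396 in the control libraries, and between 17594 and 18145 genes reached 1 FPKM in a library. The +Al libraries differed from each other more than the control libraries did. Over the genes tested, +Al replicate 1 lay below +Al replicate 2 by a median of -0.39 on the log2(FPKM + 0.1) scale (quartiles -0.59 and -0.16), and 84.1% of genes were lower in replicate 1. Control replicate 1 lay above control replicate 2 by a median of 0.14 (quartiles -0.02 and 0.32). The difference between the +Al libraries depended on the level of a gene. Its median was -0.43 for genes with a mean of 5 to 20 FPKM and -0.15 for the 178 genes at 500 FPKM or more. A gap of at least 2 on the log2 scale between the +Al replicates occurred in 148 genes that were higher in replicate 1 and in 265 that were lower, against 141 and 98 genes between the control replicates. Dividing each library by its median ratio to the mean library brought the median gap of the +Al replicates to -0.0043. Below, each named gene called as deposited and not after this rescaling is marked. Lists grouped by words in gene descriptions that lost calls are marked too, but not every KEGG pathway label that did.

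**Figure D1:**
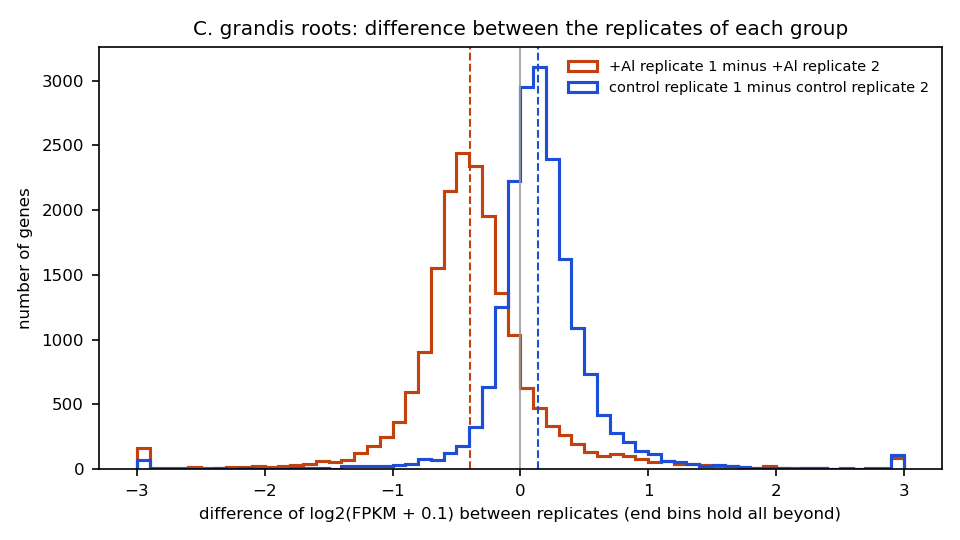
Number of genes (vertical axis) by the difference of log2(FPKM + 0.1) between replicate 1 and replicate 2 (horizontal axis) for +Al roots and control roots of C. grandis, over the 18677 genes tested, with dashed lines at the medians and all larger gaps in the end bins. The +Al distribution is centred at -0.39 and the control distribution at 0.14, and the +Al one is wider.

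The tissue label was set against marker genes. Of the root apex list, drawn by words such as scarecrow in descriptions, 4 of 9 matched genes passed the filter. Casparian strip genes of the endodermis were present, such as CASP-like protein 1-like (Cs6g11760), 77.2 and 121 FPKM in +Al roots, against 129 and 108 FPKM in control roots. The 2 genes described as root hair defective 3 that passed the filter were matched by name alone. They are not read as markers of root hairs. Members of the green tissue list summed to 227 and 259 FPKM in +Al roots, against 245 and 220.4 FPKM in control roots, so transcripts of plastid photosystems made up little of either group. Summed levels of the endodermis and vascular list were 441 and 530.1 FPKM in +Al roots, against 479 and 439.6 FPKM in control roots. No more than 2 members of either list passed the test described next, and after rescaling 0 members of the green tissue list did. In pooled tips a change in the share of a cell type cannot be told apart from a change of RNA per cell.

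The +Al roots were compared with control roots by limma on log2(FPKM + 0.1), on which scale every log2 fold change is given, and the limits for a call were an adjusted p of 0.05 (Benjamini-Hochberg over all genes tested) and a log2 fold change of 1 in either direction. Limma joins the spread of a gene with that of genes of similar level, weighted by prior degrees of freedom. These were 36.2 as deposited and 3.17 after rescaling, so the p-values below rest largely on the shared spread. In +Al roots 972 genes rose (5.20% of those tested) and 1354 fell (7.25%), together 12.5%. The median log2 fold change of all genes tested was -0.014. FPKM is relative to the depth of each library, so this median cannot show whether a shift common to all genes occurred. Among the called genes 364 rose and 546 fell by a log2 of 2 or more, and 186 rose and 262 fell by 3 or more. The genes that rose had a median level of 12.3 FPKM in +Al roots and 3.72 FPKM in control roots, and those that fell had 6.00 FPKM in +Al roots and 20.9 FPKM in control roots. After rescaling, 858 genes rose (4.60%) and 1158 fell (6.21%), and 782 of the risen and 1121 of the fallen genes were called in both fits. Of the called genes, 71 had +Al and control values that overlapped. Lack of overlap, stated below for some genes, was thus usual among called genes and adds no support to a call. A replicate was listed at 0 while its partner reached 10 FPKM or more in 52 called genes. None of those 52 was called after rescaling. With prior degrees of freedom of 3.17 against 36.2, that fit also gave more weight to the spread of each gene itself. The parts of scaling and weighting were not tested. Leaving out 1 library at a time kept 237 of the risen and 547 of the fallen genes in all 4 fits. The number that rose was 611, 476 and 434 without control replicate 1, control replicate 2 and +Al replicate 2, and the number that fell was 772 and 846 without control replicates 1 and 2.

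**Figure D2:**
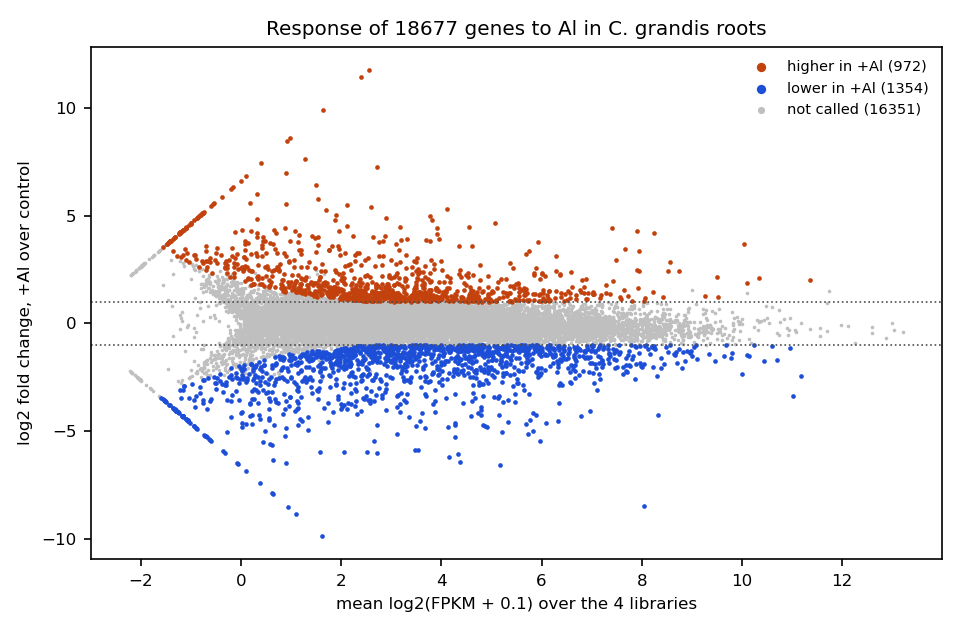
Log2 fold change of +Al over control C. grandis roots (vertical axis) against the mean log2(FPKM + 0.1) of the 4 libraries (horizontal axis), with 972 genes higher, 1354 genes lower and 16351 genes not called, and dotted lines at log2 changes of 1 and -1. The straight edges at low level are genes listed at 0 in a whole group, and falls outnumber rises at high level.

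The largest rises and falls among described genes of at least 5 FPKM in a group included transporters, tRNA ligases, enzymes of lipids and walls and inhibitors of proteases. Many of them were listed at 0 in a whole group, and for these no fold is given. A cysteine proteinase inhibitor 12-like gene (orange1.1t05285), of the cystatins that block papain-type proteases, had 138 and 67.8 FPKM in +Al roots, against 0 FPKM in both control libraries (adjusted p = 4.59e-20 by limma). A peptidyl-prolyl cis-trans isomerase (orange1.1t05377), a folding helper, had 40.2 and 30.7 FPKM in +Al roots, against 0 FPKM in both control libraries (adjusted p = 4.78e-16). Both were seen only in the +Al pair. An ALMT family gene (Cs6g12780), of the malate channels, had 28.7 and 40.3 FPKM in +Al roots, against 0 and 0.191 FPKM in control roots (log2 fold change 7.64, SE 0.50, adjusted p = 3.41e-15). Glucuronidase 3 (Cs7g05750), which acts on glucuronic acid sugars of the wall, had 64.1 and 102 FPKM in +Al roots, against 0.615 and 0.292 FPKM in control roots (log2 fold change 7.25, SE 0.36, adjusted p = 1.33e-18). Neither gene reached 1 FPKM in a control library. A methionyl-tRNA synthetase (XLOC_009088) had 9.17 and 13.8 FPKM in +Al roots, against 0 FPKM in both control libraries (adjusted p = 1.90e-10). Monogalactosyldiacylglycerol synthase 2 (Cs7g06070), which makes plastid-type galactolipid, had 5.48 and 11.2 FPKM in +Al roots, against 0.165 and 0 FPKM in control roots (log2 fold change 5.60, SE 0.67, adjusted p = 2.32e-08). The other rises of this group were an uncharacterized gene (orange1.1t05272), an NB-LRR resistance gene (XLOC_003018) and a cytochrome P450 71A1 (orange1.1t05688), at 7.22 to 30.9 FPKM in the +Al libraries and at most 1.43 FPKM in the control libraries, and a plastid division gene, FtsZ homolog 2-1 (orange1.1t05821). FtsZ had 228 and 0 FPKM in +Al roots, against 0 FPKM in both control libraries and was not called after rescaling (adjusted p = 0.302). The P450 call was lost on leaving out some libraries (adjusted p = 3.93e-09, but 0.159 without +Al replicate 1 and 0.0981 without +Al replicate 2).

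Among the largest falls, a mitochondrial-type glycine--tRNA ligase (orange1.1t05636) had 0 FPKM in both +Al libraries, against 27.6 and 47.9 FPKM in control roots (adjusted p = 4.78e-16 by limma). A WRKY transcription factor (Cs5g03090) had 0 FPKM in both +Al libraries, against 17.8 and 31.5 FPKM in control roots (adjusted p = 4.65e-14). Neither was listed above 0 in either +Al library. Ammonium transporter 2 (orange1.1t01808) had 0 and 0.202 FPKM in +Al roots, against 12.6 and 15.1 FPKM in control roots (log2 fold change -6.32, SE 0.59, adjusted p = 5.34e-11). A second gene of that name (Cs5g30580) had 0.845 and 0.443 FPKM in +Al roots, against 40.6 and 50.2 FPKM in control roots (log2 fold change -5.98, SE 0.37, adjusted p = 5.94e-16). The other 6 largest falls were called as deposited and not after rescaling, and in each of them replicates of a group lay far apart. Zinc transporter 5 (orange1.1t05711) had 0 FPKM in both +Al libraries, against 811 and 0 FPKM in control roots. A cytochrome b-c1 complex subunit 6-like gene (orange1.1t02698) had 0 and 135 FPKM in +Al roots, against 296 and 421 FPKM in control roots. The remaining 4 were a pfkB-type carbohydrate kinase (orange1.1t05772), a squalene monooxygenase-like gene (orange1.1t05606), a hypothetical protein (orange1.1t05343) and an inhibitor of trypsin and hageman factor (Cs9g08650), with adjusted p of 0.0946 to 0.301 after rescaling. Zinc transporter 5 and the hypothetical protein were listed above 0 in 1 control library alone, and without control replicate 1 neither could be called.

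Genes of the other functions were grouped by words in their descriptions, which the files give for 43.0% of all genes and for 9412 of the 18677 tested, so a list can miss members and lists can share genes. The counts below are read against 5.20% rising and 7.25% falling over all genes tested.

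**Figure D3:**
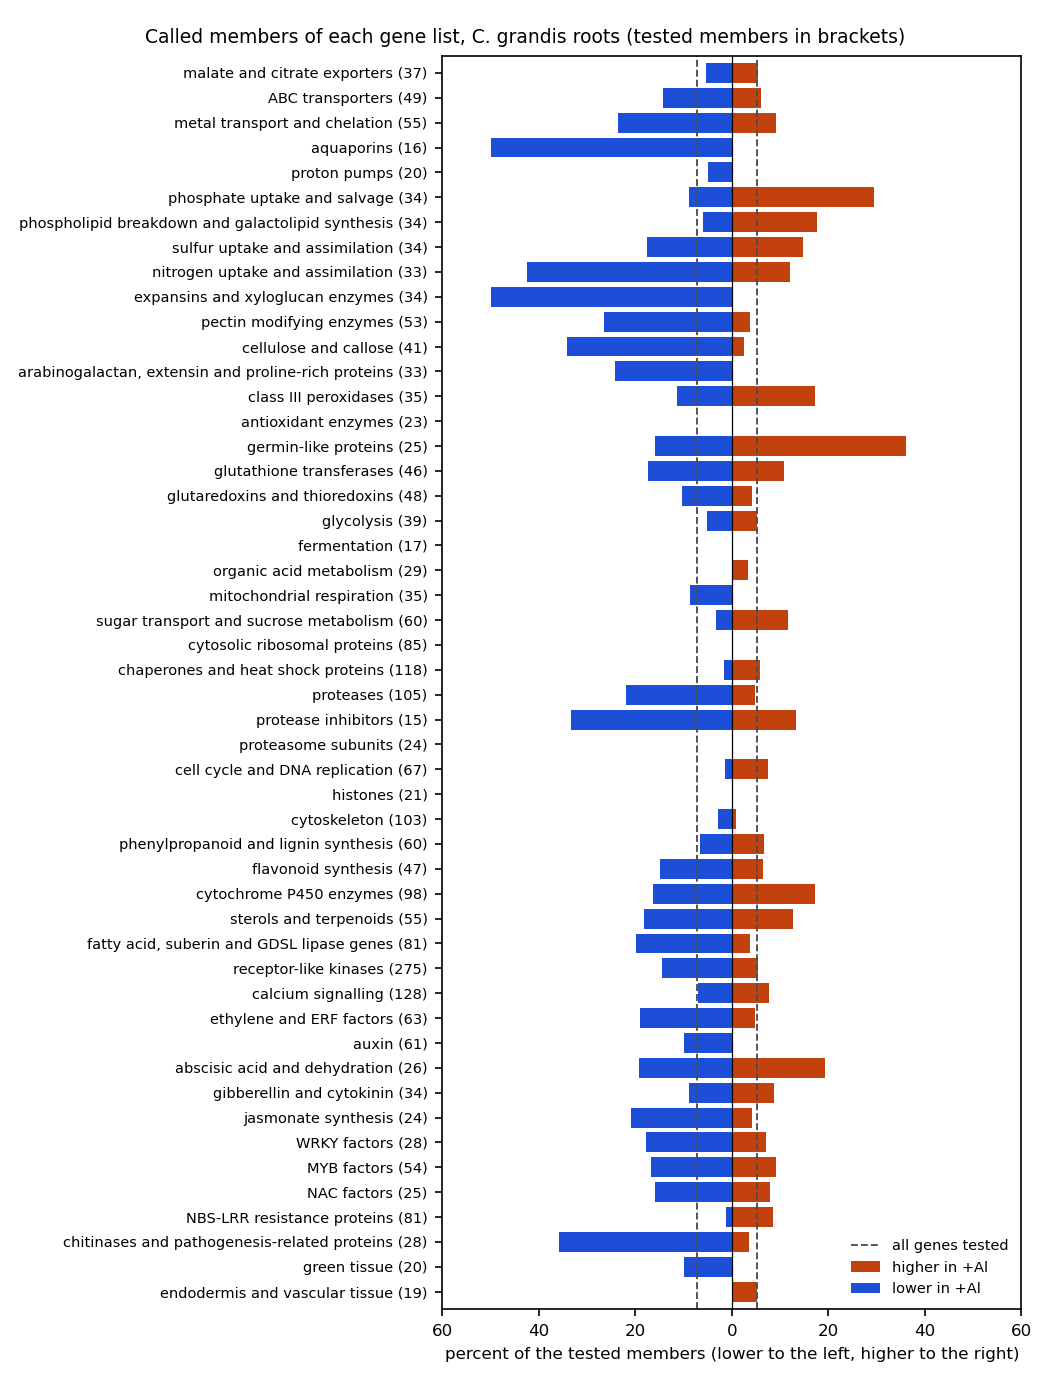
Percent of the tested members (horizontal axis) of each gene list with at least 15 tested members that were called lower (left) or higher (right) in +Al than in control C. grandis roots, with dashed lines at 7.25% lower and 5.20% higher over all genes tested. Aquaporins and expansins and xyloglucan enzymes have the longest bars to the left, and germin-like proteins and phosphate genes the longest to the right.

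A citrate carrier and a malate channel rose by large amounts in +Al roots. FRD3b (Ferric reductase defective 3b, Cs7g01770), a MATE carrier whose Arabidopsis relative releases citrate, had 650.1 and 956 FPKM in +Al roots, against 38.4 and 34.5 FPKM in control roots (log2 fold change 4.43, SE 0.22, adjusted p = 1.33e-18 by limma). Together with the ALMT gene above it made 2 of the 37 tested malate and citrate exporters higher. The 2 lower were a second ALMT gene, aluminum-activated malate transporter 2 (Cs6g12800), 1.04 and 1.81 FPKM in +Al roots, against 5.78 and 3.77 FPKM in control roots (log2 fold change -1.69, SE 0.46, adjusted p = 0.00756, but 0.0516 to 0.363 without control replicate 1, control replicate 2, +Al replicate 1 or +Al replicate 2), and a multidrug and toxin extrusion protein 2-like gene (Cs9g16870), 4.78 and 6.404 FPKM in +Al roots, against 12.5 and 14.3 FPKM in control roots (log2 fold change -1.26, SE 0.33, adjusted p = 0.00509, but 0.0727 to 0.506 without control replicate 1, control replicate 2 or +Al replicate 1). The counts became 2 higher and 1 lower without control replicate 1 or control replicate 2 and 2 higher and 0 lower without +Al replicate 1. The list therefore held members that moved in opposite directions, with a median log2 fold change of 0.27. Of 49 ABC transporters 3 rose and 7 fell. They became 5 higher and 3 lower without +Al replicate 1. After rescaling, 3 of the rises and 6 of the falls were still called. ABC transporter I family member 17 (Cs4g04420), whose Arabidopsis counterpart is a part of a complex needed for Al tolerance, had 116 and 170.4 FPKM in +Al roots, against 28.7 and 29.7 FPKM in control roots (log2 fold change 2.27, SE 0.25, adjusted p = 3.98e-09). Falls included pleiotropic drug resistance types, whose relatives export lipids and defence compounds, such as Pleiotropic drug resistance 6 (orange1.1t01531), 0.674 and 0.881 FPKM in +Al roots, against 8.598 and 7.63 FPKM in control roots (log2 fold change -3.24, SE 0.45, adjusted p = 5.28e-07), and an ABC transporter G family member 22-like gene (Cs3g21080), 0.271 and 0 FPKM in +Al roots, against 5.34 and 5.23 FPKM in control roots (log2 fold change -4.80, SE 0.71, adjusted p = 1.76e-06).

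Iron and zinc genes changed in a divided way. In the list of metal transport and chelation 5 of 55 genes rose and 13 fell. The calls were 3 higher and 6 lower without control replicate 1, 3 higher and 8 lower without control replicate 2 and 5 higher and 7 lower without +Al replicate 1. After rescaling, 5 of the rises and 11 of the falls were still called. Iron regulated 1 (Cs6g09440), an iron exporter of the ferroportin family, had 53.4 and 75.5 FPKM in +Al roots, against 3.98 and 3.07 FPKM in control roots (log2 fold change 4.14, SE 0.30, adjusted p = 9.78e-14 by limma). Ferritin, which stores iron (Cs6g09150, spelled Ferretin 1 in the files), had 152 and 227 FPKM in +Al roots, against 70.2 and 71.1 FPKM in control roots (log2 fold change 1.39, SE 0.23, adjusted p = 1.78e-05). A metallothionein-like gene (Cs1g07330), a cysteine-rich metal binder and the most abundant member, had 3734 and 1943 FPKM in +Al roots, against 684 and 557 FPKM in control roots (log2 fold change 2.13, SE 0.19, adjusted p = 3.52e-11). In all 3 genes both +Al values lay above both control values. Zinc uptake carriers of the ZIP family went the other way. Zinc transporter 1-like (Cs2g11620) had 0.282 and 0.207 FPKM in +Al roots, against 12.1 and 8.24 FPKM in control roots (log2 fold change -4.88, SE 0.52, adjusted p = 1.66e-09). Zinc transporter 10 (Cs2g10720) had 4.64 and 7.51 FPKM in +Al roots, against 40.2 and 47.6 FPKM in control roots (log2 fold change -2.87, SE 0.30, adjusted p = 1.56e-09). Zinc transporter 4 (Cs4g18450) had 19.7 and 23.5 FPKM in +Al roots, against 98.2 and 96.6 FPKM in control roots (log2 fold change -2.17, SE 0.26, adjusted p = 1.74e-08). The control values of these carriers did not overlap with the +Al values. A ZIP gene also rose, zinc transporter 5 (Cs2g11610), with 14.8 and 22.1 FPKM in +Al roots, against 7.23 and 5.78 FPKM in control roots (log2 fold change 1.47, SE 0.32, adjusted p = 7.36e-04, but 0.0619 to 0.255 without control replicate 1, control replicate 2 or +Al replicate 2). Adjacent copper transporter 1-like genes, which may share reads, fell, as Cs8g19460, with 2.38 and 2.18 FPKM in +Al roots, against 9.28 and 7.996 FPKM in control roots (log2 fold change -1.87, SE 0.38, adjusted p = 2.68e-04, but 0.141 without control replicate 1 and 0.0707 without control replicate 2). Nicotianamine synthase 3 (Cs3g15140), which makes the metal chelator nicotianamine, had 40.8 and 62.05 FPKM in +Al roots, against 153 and 139.6 FPKM in control roots (log2 fold change -1.54, SE 0.24, adjusted p = 6.97e-06).

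**Figure D4:**
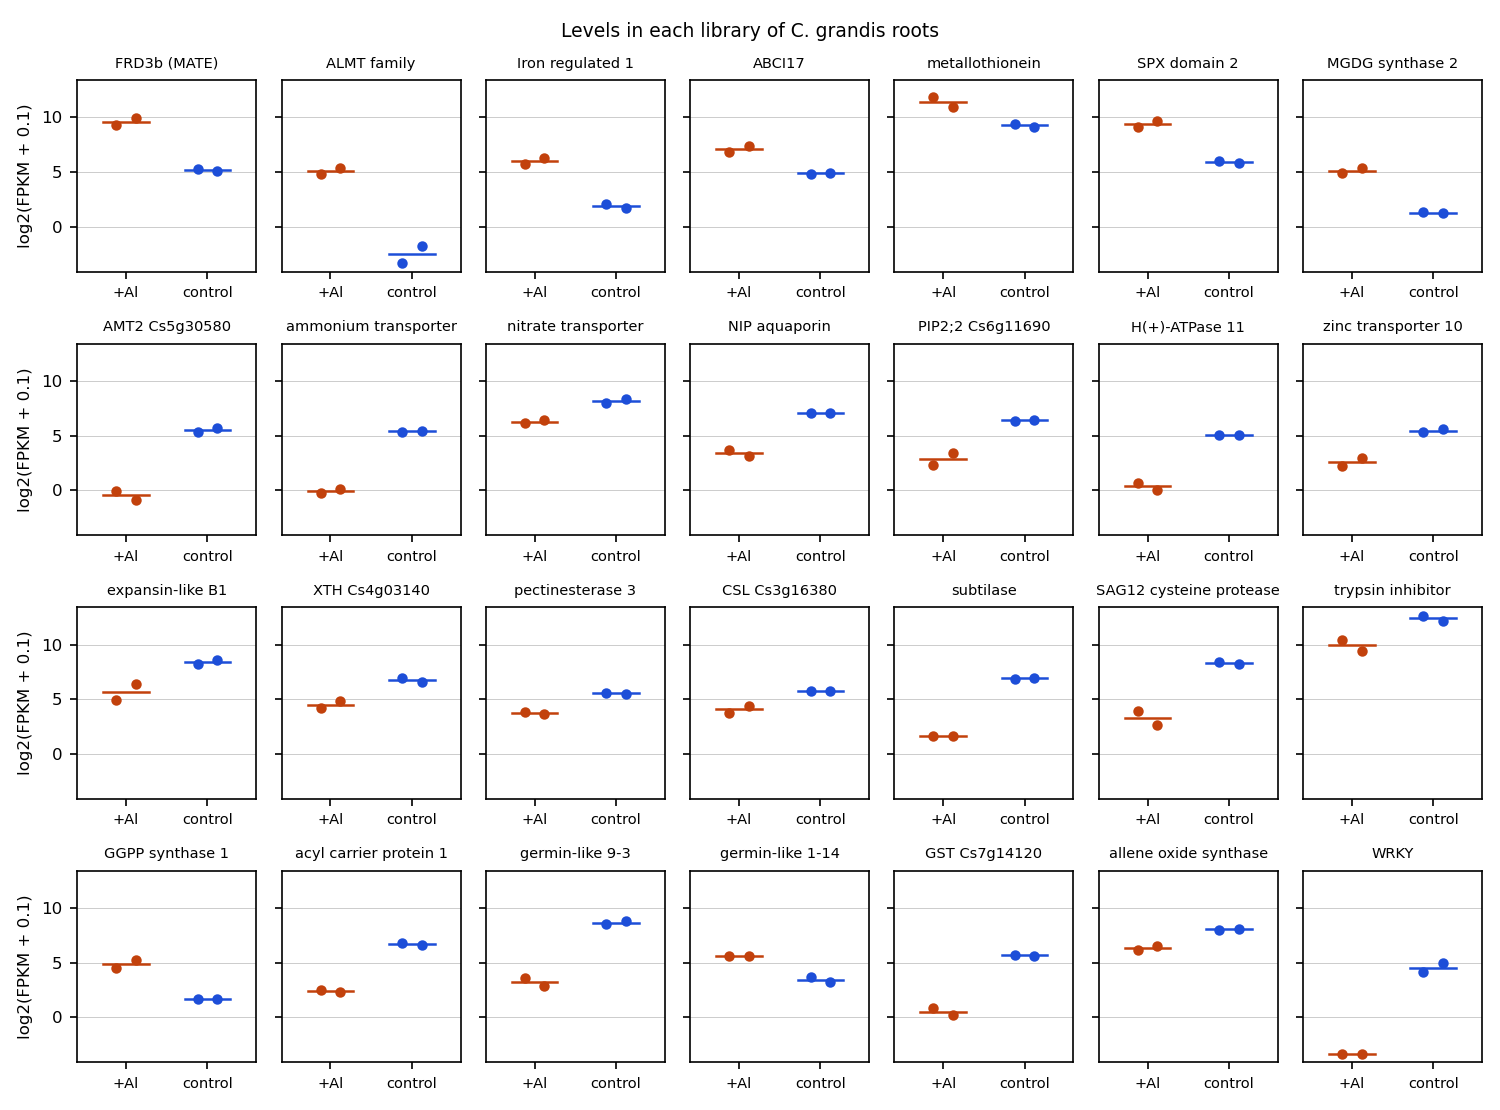
Level of 28 genes named in the text in each library of C. grandis roots on the log2(FPKM + 0.1) scale, with +Al replicates at the left and control replicates at the right of each panel and short lines at the means of 2 libraries. In every panel the +Al points lie apart from the control points; the lowest points are genes listed at 0.

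Phosphate genes had the highest share of rises among the 4 nutrient lists (phosphate, nitrogen, sulfur and metals). Of 34 genes of phosphate uptake and salvage 10 rose and 3 fell, with a median log2 fold change of 0.37. Counts were 6 higher and 2 lower without control replicate 1 or control replicate 2 or +Al replicate 2. SPX domain gene 2 (Cs4g17870), of the proteins that sense phosphate and restrain the starvation response, had 568 and 789.9 FPKM in +Al roots, against 65.8 and 57.3 FPKM in control roots (log2 fold change 3.45, SE 0.21, adjusted p = 9.96e-16 by limma). An SPX domain-containing protein 3-like gene (orange1.1t00194) had 199 and 271 FPKM in +Al roots, against 29.3 and 23.6 FPKM in control roots (log2 fold change 3.14, SE 0.24, adjusted p = 5.52e-13). Both are among genes that phosphate shortage induces in other plants. Phosphoenolpyruvate carboxylase kinase 1 (Cs8g12690), which activates the enzyme that makes oxaloacetate from phosphoenolpyruvate, had 154 and 212 FPKM in +Al roots, against 35.2 and 40.5 FPKM in control roots (log2 fold change 2.26, SE 0.24, adjusted p = 1.80e-09). Purple acid phosphatases, which free phosphate from organic compounds, were split. Number 12 (Cs3g25470) had 7.01 and 10.4 FPKM in +Al roots, against 1.59 and 1.36 FPKM in control roots (log2 fold change 2.46, SE 0.41, adjusted p = 1.31e-05). Number 27 (Cs7g02530) had 1.02 and 0.551 FPKM in +Al roots, against 17.1 and 12.7 FPKM in control roots (log2 fold change -4.12, SE 0.42, adjusted p = 4.96e-10). Phosphate transporters were split as well. Cs3g27660 had 49.9 and 84.7 FPKM in +Al roots, against 14.98 and 13.2 FPKM in control roots (log2 fold change 2.20, SE 0.28, adjusted p = 1.23e-07). Cs9g18560 had 11.2 and 4.09 FPKM in +Al roots, against 101 and 125 FPKM in control roots (log2 fold change -4.03, SE 0.32, adjusted p = 8.23e-13). The control libraries held almost all of the Cs9g18560 transcript and the +Al libraries most of the Cs3g27660 transcript.

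Lipid enzymes that spare phosphate rose with them. Of 34 genes of phospholipid breakdown and galactolipid synthesis 6 rose and 2 fell. The counts became 5 higher and 1 lower without control replicate 1 and 4 higher and 1 lower without control replicate 2. Phospholipase D P2 (Cs3g14760), which frees phosphatidic acid from membranes and is induced by phosphate shortage in Arabidopsis, had 13.4 and 21.4 FPKM in +Al roots, against 0.731 and 0.851 FPKM in control roots (log2 fold change 4.26, SE 0.40, adjusted p = 7.81e-11 by limma). A second monogalactosyldiacylglycerol synthase 2 gene (Cs4g05250) had 29.9 and 41.03 FPKM in +Al roots, against 2.37 and 2.26 FPKM in control roots (log2 fold change 3.86, SE 0.32, adjusted p = 3.64e-12). A glycerophosphodiester phosphodiesterase (Cs7g02950), which takes apart deacylated phospholipid, had 13.98 and 19.8 FPKM in +Al roots, against 3.85 and 3.11 FPKM in control roots (log2 fold change 2.23, SE 0.34, adjusted p = 2.74e-06). These genes share a role in replacing phospholipid by galactolipid. The most abundant called member, Lipid phosphate phosphatase 2 (Cs2g13120), had 82.4 and 113 FPKM in +Al roots, against 42.4 and 36.5 FPKM in control roots (log2 fold change 1.29, SE 0.25, adjusted p = 1.73e-04, but 0.106 without control replicate 2), and one of the falls was that of a phosphatidic acid phosphatase-related gene (Cs1g12410), with 26.2 and 33.4 FPKM in +Al roots, against 95.5 and 87.04 FPKM in control roots (log2 fold change -1.62, SE 0.25, adjusted p = 5.43e-06). Over the list as a whole the median was -0.15, so the rise was not shared by most members.

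Nitrogen genes fell more often than they rose: 14 of 33 fell and 4 rose, with a median log2 fold change of -0.71. They became 2 higher and 11 lower without control replicate 1, 2 higher and 12 lower without control replicate 2 and 2 higher and 15 lower without +Al replicate 2. Carriers of ammonium led the falls. Besides the 2 named above, an ammonium transporter (Cs5g03120) had 0.737 and 0.959 FPKM in +Al roots, against 39.8 and 43.5 FPKM in control roots (log2 fold change -5.47, SE 0.35, adjusted p = 1.75e-15 by limma). Ammonium transporter 3 member 1-like (Cs7g04990) had 8.57 and 3.47 FPKM in +Al roots, against 143 and 161 FPKM in control roots (log2 fold change -4.77, SE 0.31, adjusted p = 2.78e-15). AMT1;2 (Cs5g25370), a root uptake carrier, had 36.2 and 49.9 FPKM in +Al roots, against 216 and 276 FPKM in control roots (log2 fold change -2.52, SE 0.24, adjusted p = 8.34e-11). In each of these both +Al values lay far below both control values. Another gene described as ammonium transporter 3 member 1-like (Cs1g19190) rose, with 29.04 and 32.2 FPKM in +Al roots, against 4.83 and 7.36 FPKM in control roots (log2 fold change 2.34, SE 0.31, adjusted p = 1.90e-07).

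Nitrate carriers and assimilation genes fell with smaller log2 fold changes than these ammonium carriers. A nitrate transporter (Cs8g16010) had 72.2 and 84.5 FPKM in +Al roots, against 258 and 320.1 FPKM in control roots (log2 fold change -1.88, SE 0.22, adjusted p = 1.54e-08) and a nitrate transmembrane transporter (Cs5g06250) 232 and 261 FPKM in +Al roots, against 603 and 710.1 FPKM in control roots (log2 fold change -1.41, SE 0.19, adjusted p = 2.91e-07). Nitrate reductase 2 (Cs3g19060), the first enzyme of nitrate assimilation, had 179 and 253 FPKM in +Al roots, against 397 and 483 FPKM in control roots (log2 fold change -1.04, SE 0.21, adjusted p = 2.15e-04, but 0.193 without control replicate 2 and 0.0711 without +Al replicate 1). Glutamine synthetase 2 (Cs9g05680), which fixes ammonium, had 9.03 and 12.5 FPKM in +Al roots, against 38.9 and 36.9 FPKM in control roots (log2 fold change -1.82, SE 0.29, adjusted p = 7.26e-06). Both steps that take up ammonium nitrogen into amino acids were lower. NADH-dependent glutamate synthase 1 (Cs9g17990), the second of them, had 24.5 and 40.5 FPKM in +Al roots, against 86.9 and 81.2 FPKM in control roots (log2 fold change -1.41, SE 0.26, adjusted p = 9.85e-05, but 0.0616 without control replicate 1). Asparagine synthetase (Cs8g20410), the most abundant nitrogen gene called, had 1197 and 1489 FPKM in +Al roots, against 2912 and 2987 FPKM in control roots (log2 fold change -1.14, SE 0.15, adjusted p = 2.35e-07, with a log2 fold change of -0.99 without +Al replicate 1). Among the rises, a probable nitrite transporter (Cs7g13200) had 308 and 382 FPKM in +Al roots, against 82.3 and 91.2 FPKM in control roots (log2 fold change 1.98, SE 0.21, adjusted p = 2.46e-09).

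Sulfur genes rose and fell in similar numbers. 5 of 34 rose and 6 fell, and the median log2 fold change was -0.54. The calls were 3 higher and 3 lower without control replicate 1, 2 higher and 3 lower without control replicate 2, 3 higher and 4 lower without +Al replicate 1 and 2 higher and 6 lower without +Al replicate 2. After rescaling, 5 of the rises and 5 of the falls were still called. The risen members were all carriers, but carriers also fell. Sulfate transporter 3,5 (Cs4g16770), which in Arabidopsis helps sulfate move to the shoot, had 56.9 and 85.5 FPKM in +Al roots, against 3.002 and 3.35 FPKM in control roots (log2 fold change 4.42, SE 0.30, adjusted p = 1.64e-14 by limma). A sulfate/bicarbonate/oxalate exchanger (Cs9g07580) had 10.3 and 10.6 FPKM in +Al roots, against 2.73 and 2.22 FPKM in control roots (log2 fold change 2.04, SE 0.36, adjusted p = 4.57e-05, but 0.061 without control replicate 2). The enzymes of sulfate reduction did not rise. A 5'-adenylylsulfate reductase 3 gene (Cs2g02980), the committed step of assimilation, had 28.5 and 30.3 FPKM in +Al roots, against 97.2 and 98.3 FPKM in control roots (log2 fold change -1.73, SE 0.25, adjusted p = 1.14e-06). Ferredoxin:sulfite reductase (Cs2g30390), which makes sulfide, had 28.96 and 43.5 FPKM in +Al roots, against 71.2 and 72.5 FPKM in control roots (log2 fold change -1.02, SE 0.26, adjusted p = 0.00435, but 0.261 without control replicate 1 and 0.327 without control replicate 2, with a log2 fold change of -0.72 without +Al replicate 1). Sulfate transporter 1,3 (Cs3g18650) had 18.8 and 22.4 FPKM in +Al roots, against 75.3 and 71.5 FPKM in control roots (log2 fold change -1.83, SE 0.26, adjusted p = 9.82e-07). S-adenosylmethionine synthetase (Cs9g01410), which makes the general methyl donor, had 102 and 94.95 FPKM in +Al roots, against 231 and 222 FPKM in control roots (log2 fold change -1.20, SE 0.22, adjusted p = 5.58e-05, but 0.0625 without control replicate 1).

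Water channels fell in many cases and rose in none. Of 16 aquaporins 8 fell and 0 rose, with a median log2 fold change of -0.79. After rescaling, 7 of the falls were still called. The most abundant, aquaporin TIP1-3-like (Cs8g17900), a channel of the vacuole membrane, had 87 and 103 FPKM in +Al roots, against 578 and 554 FPKM in control roots (log2 fold change -2.58, SE 0.20, adjusted p = 8.43e-13 by limma). A channel of the NIP subfamily (Cs3g18230), whose relatives carry small uncharged solutes such as boric acid, had 12.8 and 8.62 FPKM in +Al roots, against 133 and 132 FPKM in control roots (log2 fold change -3.65, SE 0.27, adjusted p = 1.14e-13). The plasma membrane channels described as plasma intrinsic protein 2,2 lie close together and may share reads. Cs6g11690 had 4.74 and 10.2 FPKM in +Al roots, against 81.8 and 88.1 FPKM in control roots (log2 fold change -3.59, SE 0.30, adjusted p = 4.98e-12). Cs6g11700 had 3.17 and 7.92 FPKM in +Al roots, against 58.4 and 56.3 FPKM in control roots. Cs6g11660 had 0.967 and 2.77 FPKM in +Al roots, against 19.7 and 16.5 FPKM in control roots. One abundant channel was not called. Aquaporin TIP4-1-like (Cs4g19580), at 245 and 310.3 FPKM in +Al roots, against 248 and 299.8 FPKM in control roots, had a log2 fold change of 0.01. Of 20 proton pump genes only H(+)-ATPase 11 (Cs5g08370), a plasma membrane pump that drives nutrient uptake, was called, with 1.52 and 0.901 FPKM in +Al roots, against 33.8 and 33.1 FPKM in control roots (log2 fold change -4.72, SE 0.35, adjusted p = 1.41e-13). The more abundant Plasma membrane ATPase 4 (Cs4g03700) had 134 and 179 FPKM in +Al roots, against 155 and 145 FPKM in control roots (log2 fold change 0.05, SE 0.22, adjusted p = 0.936), which was not called. Counts were 1 higher and 1 lower without +Al replicate 1. The summed level of the list, of which Cs5g08370 was a small part, was 1674 and 2083 FPKM in +Al roots, against 2134 and 2032 FPKM in control roots.

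Cell wall genes fell more often than they rose in each of 4 lists, of expansins and xyloglucan enzymes, pectin, cellulose and wall proteins. In expansins and xyloglucan enzymes 17 of 34 genes fell and 0 rose. 33 members had a log2 fold change below 0, and the median was -1.17. The counts became 0 higher and 11 lower without control replicate 1. After rescaling, 14 of the falls were still called. Expansin-like B1 (XLOC_004133), of the proteins that let wall polymers slide, had 30.01 and 85.8 FPKM in +Al roots, against 300.3 and 390.4 FPKM in control roots (log2 fold change -2.75, SE 0.28, adjusted p = 7.27e-10 by limma). Alpha-expansin 1 (Cs5g26290) had 52.7 and 73.3 FPKM in +Al roots, against 140.4 and 137 FPKM in control roots (log2 fold change -1.16, SE 0.24, adjusted p = 3.56e-04, but 0.109 without control replicate 1 and 0.103 without control replicate 2, with a log2 fold change of -0.92 without +Al replicate 1). Xyloglucan endotransglucosylase/hydrolases, which cut and rejoin the tethers between cellulose fibrils, fell as a cluster of neighbouring genes on 1 chromosome that may share reads. Cs4g03050 had 9.29 and 20.6 FPKM in +Al roots, against 90.7 and 69.3 FPKM in control roots (log2 fold change -2.51, SE 0.30, adjusted p = 2.23e-08). Cs4g03140 had 18.6 and 27.9 FPKM in +Al roots, against 121 and 95.3 FPKM in control roots (log2 fold change -2.23, SE 0.26, adjusted p = 1.72e-08). Cs4g03130 and Cs4g03220 fell with log2 fold changes of -2.08 and -2.10. Inhibitors of xyloglucan-specific endoglucanase, which protect the same polymer, fell too, as in Cs9g06240, 41.1 and 45.3 FPKM in +Al roots, against 150.5 and 143 FPKM in control roots (log2 fold change -1.76, SE 0.24, adjusted p = 2.73e-07). No member of this list of expansins and xyloglucan enzymes was called higher under any fit that left out 1 library.

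Pectin genes, which set how many acidic groups of the wall can hold Al, fell in 14 of 53 cases and rose in 2, with a median log2 fold change of -0.54. They became 0 higher and 5 lower without control replicate 1, 0 higher and 3 lower without control replicate 2, 0 higher and 9 lower without +Al replicate 1 and 1 higher and 12 lower without +Al replicate 2. After rescaling, 2 of the rises and 12 of the falls were still called. Pectinesterases remove methyl groups from pectin. The most abundant one called (Cs1g16550) had 177 and 132 FPKM in +Al roots, against 378 and 419 FPKM in control roots (log2 fold change -1.38, SE 0.21, adjusted p = 2.55e-06 by limma). Pectinesterase 3 (Cs1g16560) had 13.7 and 12.3 FPKM in +Al roots, against 46.4 and 45.8 FPKM in control roots (log2 fold change -1.82, SE 0.28, adjusted p = 3.36e-06). Neighbouring pectinesterases may share reads. In the opposite direction Pectinesterase 11 (Cs2g16380) had 7.12 and 5.83 FPKM in +Al roots, against 1.59 and 2.29 FPKM in control roots (log2 fold change 1.71, SE 0.41, adjusted p = 0.00217, but 0.0548 to 0.297 without control replicate 1, control replicate 2, +Al replicate 1 or +Al replicate 2). Enzymes that make pectin fell as well, as in Galacturonosyltransferase-like 7 (Cs5g33680), 16.6 and 17.3 FPKM in +Al roots, against 43.3 and 38.96 FPKM in control roots (log2 fold change -1.27, SE 0.28, adjusted p = 7.02e-04, but 0.23 without control replicate 1 and 0.144 without control replicate 2). In cellulose and callose 14 of 41 genes fell and 1 rose. The calls were 1 higher and 8 lower without control replicate 1, 2 higher and 6 lower without control replicate 2, 5 higher and 8 lower without +Al replicate 1 and 0 higher and 15 lower without +Al replicate 2. After rescaling, 0 of the rises and 13 of the falls were still called. Cellulose synthase 3 (Cs4g01990) had 4.41 and 5.69 FPKM in +Al roots, against 13.1 and 13.2 FPKM in control roots (log2 fold change -1.37, SE 0.33, adjusted p = 0.00223, but 0.0537 to 0.322 without control replicate 1, control replicate 2 or +Al replicate 1). Cellulose synthase-like protein Cs3g16380 had 13.6 and 20.2 FPKM in +Al roots, against 55.1 and 55.1 FPKM in control roots (log2 fold change -1.73, SE 0.28, adjusted p = 8.56e-06). Cellulose synthase-like D3 (Cs3g09000), whose Arabidopsis relative is needed for root hairs, had 1.77 and 2.16 FPKM in +Al roots, against 12.1 and 10.5 FPKM in control roots (log2 fold change -2.47, SE 0.37, adjusted p = 2.43e-06). Synthase-like genes thus fell beside a synthase. COBRA-like protein-7 (Cs9g02720), of a family that orients cellulose, had 12.3 and 18.1 FPKM in +Al roots, against 56.8 and 55.7 FPKM in control roots. The risen member was a beta-1,3-glucanase (orange1.1t00635), an enzyme that breaks callose, with 5.93 and 46 FPKM in +Al roots, against 3.95 and 4.92 FPKM in control roots, and it was not called after rescaling (adjusted p = 0.162). Other beta-1,3-glucanases fell, the most abundant of them (orange1.1t00647) with 96.8 and 133 FPKM in +Al roots, against 255 and 264 FPKM in control roots (log2 fold change -1.19, SE 0.22, adjusted p = 6.90e-05, but 0.0634 without control replicate 2, with a log2 fold change of -0.97 without +Al replicate 1). Among arabinogalactan, extensin and proline-rich proteins 8 of 33 fell and 0 rose, and 5 of the fallen ones were called after rescaling. Counts were 0 higher and 2 lower without control replicate 1 or control replicate 2 and 0 higher and 4 lower without +Al replicate 2. An extensin-like protein (XLOC_011383), a structural wall protein, had 363 and 262 FPKM in +Al roots, against 733 and 881 FPKM in control roots (log2 fold change -1.38, SE 0.19, adjusted p = 5.28e-07).

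Enzymes that handle active oxygen did not move together. None of 23 antioxidant enzymes was called by limma, against 12.5% of all genes, and 3 of them had an unadjusted p under 0.05. Catalase (Cs3g27280) had 1573 and 2325 FPKM in +Al roots, against 2303 and 2486 FPKM in control roots. Ascorbate peroxidase 2 (Cs8g17370) had 1673 and 1843 FPKM in +Al roots, against 2054 and 2082 FPKM in control roots. Copper/zinc superoxide dismutase (Cs3g12000) had 949 and 1115 FPKM in +Al roots, against 1054 and 901 FPKM in control roots. Values of catalase and the superoxide dismutase overlapped between the groups, and those of the peroxidase did not. Germin-like proteins, wall proteins some of which make hydrogen peroxide, rose in 9 and fell in 4 of 25 genes. The counts became 5 higher and 4 lower without control replicate 2. After rescaling, 7 of the rises and 4 of the falls were still called. The direction followed the name. All 4 that fell were described as germin-like protein 9-3, among them XLOC_020823, with 12.3 and 7.08 FPKM in +Al roots, against 378 and 448 FPKM in control roots (log2 fold change -5.45, SE 0.26, adjusted p = 3.96e-19), and Cs7g20270, with 1.36 and 2.203 FPKM in +Al roots, against 29.1 and 30.7 FPKM in control roots (log2 fold change -4.03, SE 0.34, adjusted p = 4.98e-12). Most of those that rose were of subfamily 1 in a cluster of neighbouring genes that may share reads, as Cs5g14210, with 48.2 and 49.98 FPKM in +Al roots, against 12.7 and 9.297 FPKM in control roots (log2 fold change 2.17, SE 0.28, adjusted p = 1.62e-07), and Cs5g14300, with 8.02 and 5.82 FPKM in +Al roots, against 0.716 and 1.02 FPKM in control roots (log2 fold change 2.86, SE 0.46, adjusted p = 8.52e-06). Of 35 class III peroxidases, which cross-link phenolics in the wall, 6 rose and 4 fell, and 3 and 2 of them were called after rescaling. They became 3 higher and 1 lower without control replicate 1, 2 higher and 2 lower without control replicate 2, 1 higher and 5 lower without +Al replicate 1 and 6 higher and 2 lower without +Al replicate 2. The most abundant called one, a secretory peroxidase (Cs2g03110), had 1075 and 1071 FPKM in +Al roots, against 2209.6 and 2275 FPKM in control roots (log2 fold change -1.06, SE 0.15, adjusted p = 1.19e-06). A peroxidase superfamily gene (orange1.1t02033) had 95.6 and 130.1 FPKM in +Al roots, against 40.1 and 37 FPKM in control roots (log2 fold change 1.53, SE 0.25, adjusted p = 9.96e-06).

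Glutathione transferases, which attach glutathione to toxic compounds, included some of the largest falls. 5 of 46 rose and 8 fell, although the median of the list was 0.44. The calls were 4 higher and 5 lower without control replicate 2 and 2 higher and 6 lower without +Al replicate 2. After rescaling, 5 of the rises and 6 of the falls were still called. A probable glutathione S-transferase (Cs7g14120) had 1.69 and 1.07 FPKM in +Al roots, against 52.4 and 50.1 FPKM in control roots (log2 fold change -5.15, SE 0.33, adjusted p = 2.35e-15 by limma). Glutathione S-transferase TAU 19 (orange1.1t04916) had 2.94 and 1.74 FPKM in +Al roots, against 70.5 and 65.1 FPKM in control roots (log2 fold change -4.84, SE 0.32, adjusted p = 3.13e-15). Another probable glutathione S-transferase (orange1.1t04722) had 12.6 and 3.11 FPKM in +Al roots, against 115 and 128 FPKM in control roots (log2 fold change -4.25, SE 0.36, adjusted p = 3.50e-12). Both +Al values of these 3 lay below both control values. In the other direction a glutathione S-transferase U8-like gene (Cs8g19390) had 86.5 and 71.7 FPKM in +Al roots, against 23.8 and 22.9 FPKM in control roots (log2 fold change 1.75, SE 0.26, adjusted p = 1.88e-06). Of 48 glutaredoxins and thioredoxins 2 rose and 5 fell. Counts were 0 higher and 2 lower without control replicate 1 or control replicate 2, 2 higher and 3 lower without +Al replicate 1 and 0 higher and 3 lower without +Al replicate 2. NADPH-dependent thioredoxin reductase A (Cs1g26810), which passes electrons to thioredoxin, had 42.2 and 73.6 FPKM in +Al roots, against 278 and 261 FPKM in control roots (log2 fold change -2.27, SE 0.24, adjusted p = 1.43e-09). A glutaredoxin (Cs2g16150) had 104 and 149.7 FPKM in +Al roots, against 378 and 413 FPKM in control roots (log2 fold change -1.66, SE 0.21, adjusted p = 1.05e-07).

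Genes of the fermentation and organic acid lists were called less often than all genes tested, with 0 calls and 3.4% of members. The shares for glycolysis were near that of all genes, at 10.3% of the keyword list and 12.3% of the KEGG label. Of 39 glycolysis genes 2 rose and 2 fell, of 17 fermentation genes 0 were called, and of 29 genes of organic acid metabolism 1 rose and 0 fell. For glycolysis the counts were 2 higher and 0 lower without control replicate 1, control replicate 2 or +Al replicate 1 and 1 higher and 1 lower without +Al replicate 2, and for organic acids 1 higher and 1 lower without +Al replicate 2. By the KEGG label, Glycolysis / Gluconeogenesis had 2 genes higher and 6 lower of 65, with 2 higher and 2 lower without control replicate 1, 1 higher and 1 lower without control replicate 2, 1 higher and 3 lower without +Al replicate 1 and 1 higher and 8 lower without +Al replicate 2, and the Citrate cycle had 4 lower of 27. Fermentation had 2 genes with an unadjusted p under 0.05 by limma, among them alcohol dehydrogenase (Cs3g20830), with 119.8 and 147 FPKM in +Al roots, against 229 and 229 FPKM in control roots (log2 fold change -0.79, SE 0.21, adjusted p = 0.00754), whose fold was under the limit. The risen gene was a phosphoenolpyruvate carboxylase (orange1.1t05524), which feeds malate and citrate synthesis, with 241 and 185.7 FPKM in +Al roots, against 89.7 and 77.2 FPKM in control roots (log2 fold change 1.35, SE 0.23, adjusted p = 1.68e-05). A second gene of that enzyme (Cs8g09580) had 255 and 388 FPKM in +Al roots, against 239 and 239 FPKM in control roots and was not called (log2 fold change 0.40, SE 0.21, adjusted p = 0.227). NADP-dependent glyceraldehyde-3-phosphate dehydrogenase (Cs4g01490) had 3.81 and 8.09 FPKM in +Al roots, against 0.851 and 0.804 FPKM in control roots (log2 fold change 2.61, SE 0.49, adjusted p = 1.02e-04). A plastid fructose-bisphosphate aldolase 3 gene (Cs2g13410) had 151 and 196 FPKM in +Al roots, against 359.7 and 358 FPKM in control roots (log2 fold change -1.06, SE 0.21, adjusted p = 1.67e-04, but 0.0856 without control replicate 1 and 0.0865 without control replicate 2, with a log2 fold change of -0.87 without +Al replicate 1). In respiration 3 of 35 genes fell, 2 of them also after rescaling and 1 without +Al replicate 1. The clearest was mitochondrial uncoupling protein 5-like (Cs3g17390), a carrier of the inner membrane, with 97.2 and 122 FPKM in +Al roots, against 422 and 421 FPKM in control roots (log2 fold change -1.95, SE 0.21, adjusted p = 1.73e-09). Of 60 genes of sugar transport and sucrose metabolism 7 rose and 2 fell. They became 3 higher and 1 lower without control replicate 1, 3 higher and 0 lower without control replicate 2, 6 higher and 0 lower without +Al replicate 1 and 2 higher and 2 lower without +Al replicate 2. By the KEGG label Starch and sucrose metabolism the balance was the other way, with 6 of 79 higher and 13 lower, and 1 higher and 6 lower without control replicate 1 or control replicate 2, 5 higher and 7 lower without +Al replicate 1 and 3 higher and 9 lower without +Al replicate 2. Carriers described as mannitol transporter were the most abundant, with orange1.1t05405 at 1440.2 and 3023 FPKM in +Al roots, against 436 and 750.1 FPKM in control roots (log2 fold change 1.87, SE 0.22, adjusted p = 1.96e-08, but 0.0932 without +Al replicate 2) and Cs8g06820 at 249.7 and 332 FPKM in +Al roots, against 76.1 and 91.96 FPKM in control roots (log2 fold change 1.78, SE 0.22, adjusted p = 5.74e-08). Sucrose phosphate synthase 1F (Cs7g05690), which makes sucrose, had 9.39 and 10.3 FPKM in +Al roots, against 3.15 and 3.03 FPKM in control roots (log2 fold change 1.64, SE 0.35, adjusted p = 7.24e-04, but 0.142 without control replicate 1 and 0.168 without control replicate 2). Sucrose synthase (Cs4g06850), which breaks it, had 735 and 997 FPKM in +Al roots, against 1669 and 1783 FPKM in control roots (log2 fold change -1.01, SE 0.17, adjusted p = 1.43e-05, but 0.0512 without control replicate 2 and 0.0505 without +Al replicate 1).

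Ribosomal proteins and proteasome subunits were not called, and many proteases fell. None of 85 cytosolic ribosomal protein genes was called, but 72 were below 0 on the log2 scale, and the median was -0.34. Counts were 0 higher and 1 lower without control replicate 1. By limma 29 of them had an unadjusted p under 0.05. Between the +Al replicates the list differed by a median of -0.04, so the offset of the libraries did not extend to it as deposited, and after rescaling the same offset became 0.34. None of 24 proteasome subunits was called (4 with an unadjusted p under 0.05), and of 118 chaperones and heat shock proteins 7 rose and 2 fell. The counts became 3 higher and 0 lower without control replicate 1, 2 higher and 1 lower without control replicate 2, 2 higher and 2 lower without +Al replicate 1 and 2 higher and 3 lower without +Al replicate 2. After rescaling, 5 of the rises and 2 of the falls were still called. Proteases fell in 23 and rose in 5 of 105 genes. They became 2 higher and 27 lower without +Al replicate 2. After rescaling, 3 of the rises and 21 of the falls were still called. A subtilase (Cs8g02980), a secreted serine protease, had 3.04 and 2.96 FPKM in +Al roots, against 116 and 125 FPKM in control roots (log2 fold change -5.28, SE 0.29, adjusted p = 1.52e-17). A subtilisin-like protease (Cs3g23360) had 17.4 and 15.9 FPKM in +Al roots, against 357 and 407 FPKM in control roots (log2 fold change -4.51, SE 0.24, adjusted p = 5.61e-18). Genes described as Senescence-associated gene 12, a papain-type cysteine protease that marks ageing leaves in Arabidopsis, fell together and may share reads. The most abundant were orange1.1t05706, with 15.3 and 6.33 FPKM in +Al roots, against 338 and 308 FPKM in control roots (log2 fold change -5.02, SE 0.29, adjusted p = 7.74e-17), and Cs2g15480, with 22.1 and 8.21 FPKM in +Al roots, against 328 and 348 FPKM in control roots (log2 fold change -4.64, SE 0.29, adjusted p = 1.18e-15). In these named falls replicate 1 was the higher +Al library or nearly equal, unlike most genes. Over all tested proteases the median gap between the +Al replicates was -0.43, against -0.39 for all genes. A serine carboxypeptidase-like 18-like gene (Cs8g03860) rose, with 16.2 and 24.3 FPKM in +Al roots, against 2.13 and 2.25 FPKM in control roots (log2 fold change 3.12, SE 0.35, adjusted p = 4.02e-09).

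Inhibitors of proteases were few, 15 tested, of which 2 rose and 5 fell. The calls were 1 higher and 5 lower without +Al replicate 1. After rescaling, 2 of the rises and 4 of the falls were still called. Besides the cystatin named first, miraculin-like protein 2 (Cs5g16770), of the Kunitz family, had 25.8 and 14.4 FPKM in +Al roots, against 1.18 and 0.279 FPKM in control roots (log2 fold change 4.80, SE 0.46, adjusted p = 1.16e-10, but 0.0685 without +Al replicate 1 by limma). Trypsin inhibitor Cs9g08680, one of the most abundant transcripts of control roots, had 1407 and 705 FPKM in +Al roots, against 6331 and 4638 FPKM in control roots (log2 fold change -2.44, SE 0.19, adjusted p = 5.95e-13). Cs5g13890 had 5.34 and 2.91 FPKM in +Al roots, against 37.2 and 42.5 FPKM in control roots (log2 fold change -3.30, SE 0.32, adjusted p = 1.70e-10). The falls thus held the abundant trypsin inhibitors, and the rises inhibitors that were near or at 0 in control roots.

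Isoprenoid enzymes were called in both directions. Of 55 genes of sterols and terpenoids 7 rose and 10 fell. After rescaling, 7 of the rises and 8 of the falls were still called. Of the risen genes 5 were described as geranylgeranyl pyrophosphate synthase 1, which makes the precursor of carotenoids and gibberellins, and these copies may share reads. The most abundant, Cs3g03630, had 42.3 and 68.1 FPKM in +Al roots, against 11.2 and 11.6 FPKM in control roots (log2 fold change 2.22, SE 0.29, adjusted p = 1.27e-07 by limma). Cs4g20160 had 22.5 and 39.04 FPKM in +Al roots, against 3.14 and 3.17 FPKM in control roots (log2 fold change 3.19, SE 0.33, adjusted p = 7.42e-10). A few sterol and triterpene genes fell, and of 13 genes with the KEGG label Steroid biosynthesis 2 were lower and 0 higher. A 3-hydroxy-3-methylglutaryl coenzyme A reductase (Cs8g01160), which feeds the cytosolic branch, had 70.6 and 102 FPKM in +Al roots, against 312 and 302 FPKM in control roots (log2 fold change -1.85, SE 0.22, adjusted p = 2.50e-08). Squalene epoxidase 1 (Cs4g04640) had 0.476 and 0.275 FPKM in +Al roots, against 7.64 and 6.91 FPKM in control roots (log2 fold change -3.99, SE 0.52, adjusted p = 1.55e-07). A cycloartenol synthase-like gene (Cs4g04630), the entry to plant sterols, had 0.439 and 0.0422 FPKM in +Al roots, against 6.21 and 5.77 FPKM in control roots (log2 fold change -4.46, SE 0.64, adjusted p = 1.10e-06). Cytochrome P450 enzymes, a large family of oxidases, rose in 17 and fell in 16 of 98 genes, and 15 and 10 kept their call after rescaling. Counts were 13 higher and 8 lower without control replicate 1, 12 higher and 6 lower without control replicate 2, 12 higher and 8 lower without +Al replicate 1 and 10 higher and 16 lower without +Al replicate 2. A gene of family 78 (orange1.1t00542) had 22.1 and 32.6 FPKM in +Al roots, against 2.05 and 1.59 FPKM in control roots (log2 fold change 3.82, SE 0.34, adjusted p = 2.39e-11). Neighbouring P450 genes Cs5g14800, Cs5g14880, Cs5g14900 and Cs5g14920, which may share reads, rose together, the first with 32.9 and 43.5 FPKM in +Al roots, against 6.94 and 6.45 FPKM in control roots (log2 fold change 2.48, SE 0.30, adjusted p = 2.43e-08).

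Genes of fatty acids, suberin and GDSL lipases fell in 16 and rose in 3 of 81 cases. The counts became 1 higher and 11 lower without control replicate 1, 0 higher and 12 lower without control replicate 2, 1 higher and 13 lower without +Al replicate 1 and 1 higher and 16 lower without +Al replicate 2. After rescaling, 1 of the rises and 13 of the falls were still called. Acyl carrier protein 1 (Cs4g06470), which holds the growing fatty acid, had 5.59 and 5.05 FPKM in +Al roots, against 113 and 101 FPKM in control roots (log2 fold change -4.30, SE 0.28, adjusted p = 3.05e-15 by limma). 3-ketoacyl-acyl carrier protein synthase I (Cs5g01990), which lengthens it, had 3.08 and 3.05 FPKM in +Al roots, against 29.5 and 32.01 FPKM in control roots (log2 fold change -3.28, SE 0.32, adjusted p = 1.46e-10). Glycerol-3-phosphate acyltransferase 6 (Cs6g20410), of the enzymes that make cutin monomers in Arabidopsis, had 1.43 and 0.987 FPKM in +Al roots, against 16.7 and 19.9 FPKM in control roots (log2 fold change -3.83, SE 0.37, adjusted p = 2.03e-10). Falls thus touched both the synthesis and the use of fatty acids. An omega-3 fatty acid desaturase (Cs6g08600) had 24.6 and 35.4 FPKM in +Al roots, against 142 and 108 FPKM in control roots (log2 fold change -2.07, SE 0.26, adjusted p = 4.94e-08). A 3-ketoacyl-CoA synthase (Cs4g17260), which makes very long chains, had 8.37 and 9.16 FPKM in +Al roots, against 44.8 and 42.9 FPKM in control roots (log2 fold change -2.31, SE 0.29, adjusted p = 5.00e-08). Phenylpropanoid and lignin genes were called in 4 higher and 4 lower cases of 60. They became 1 higher and 4 lower without control replicate 1 or control replicate 2, 7 higher and 3 lower without +Al replicate 1 and 0 higher and 5 lower without +Al replicate 2. After rescaling, 3 of the rises and 2 of the falls were still called. Phenylalanine-ammonia lyase (Cs6g11950), the entry enzyme, had 43.5 and 7.23 FPKM in +Al roots, against 55.9 and 61.7 FPKM in control roots and was not called after rescaling (adjusted p = 0.244), and a caffeic acid 3-O-methyltransferase (Cs5g35070) had 1.03 and 2.36 FPKM in +Al roots, against 14.3 and 14.6 FPKM in control roots (log2 fold change -3.13, SE 0.39, adjusted p = 5.50e-08). Of 47 flavonoid genes 3 rose, all 3 described as chalcone and stilbene synthase, and 7 fell. The calls were 4 higher and 0 lower without control replicate 1, 3 higher and 0 lower without control replicate 2 and 4 higher and 1 lower without +Al replicate 1. After rescaling, 3 of the rises and 6 of the falls were still called. The 3 synthases were much higher in +Al replicate 2 than in replicate 1, as Cs3g20680, with 2.46 and 10.6 FPKM in +Al roots, against 0.474 and 0.306 FPKM in control roots (log2 fold change 3.44, SE 0.60, adjusted p = 3.55e-05).

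Receptor-like kinases, the largest list, fell in 40 and rose in 15 of 275 genes, and 39 of the falls and 12 of the rises were called after rescaling as well. Counts were 7 higher and 23 lower without control replicate 1, 7 higher and 24 lower without control replicate 2 and 3 higher and 41 lower without +Al replicate 2. Wall-associated receptor kinase-like 20 (Cs3g14840), of a family that binds pectin, had 8.596 and 12.6 FPKM in +Al roots, against 124 and 110.5 FPKM in control roots (log2 fold change -3.48, SE 0.27, adjusted p = 5.92e-13 by limma). An L-type lectin-domain containing receptor kinase S.7 gene (Cs7g05270) had 23.6 and 7.53 FPKM in +Al roots, against 241 and 236 FPKM in control roots (log2 fold change -4.15, SE 0.31, adjusted p = 1.60e-13). An S-locus lectin protein kinase (Cs4g11610) had 4.38 and 6.19 FPKM in +Al roots, against 0.127 and 0.279 FPKM in control roots (log2 fold change 4.18, SE 0.62, adjusted p = 2.10e-06). Of 128 calcium genes 10 rose and 9 fell, shares near those of all genes. The counts became 7 higher and 5 lower without control replicate 1, 8 higher and 4 lower without +Al replicate 1 and 5 higher and 8 lower without +Al replicate 2. After rescaling, 9 of the rises and 9 of the falls were still called. The calmodulin-like sensors that were called fell, as CML31-like (Cs5g07160), with 7.16 and 16.4 FPKM in +Al roots, against 128 and 103 FPKM in control roots (log2 fold change -3.39, SE 0.30, adjusted p = 1.38e-11), and CML37 (orange1.1t04034), with 39.3 and 44.2 FPKM in +Al roots, against 161 and 151 FPKM in control roots (log2 fold change -1.90, SE 0.24, adjusted p = 5.63e-08). Among the risen calcium genes, annexin D5 (orange1.1t01651), a calcium-dependent membrane binder, had 32.9 and 44.7 FPKM in +Al roots, against 2.01 and 3.06 FPKM in control roots (log2 fold change 3.90, SE 0.33, adjusted p = 3.50e-12). CBL-interacting protein kinase 22 (Cs6g09730) had 216 and 300.2 FPKM in +Al roots, against 98.5 and 94.8 FPKM in control roots (log2 fold change 1.40, SE 0.22, adjusted p = 6.75e-06).

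Hormone genes differed by hormone. Ethylene genes and ERF factors fell in 12 and rose in 3 of 63 cases. They became 1 higher and 8 lower without control replicate 2, 1 higher and 12 lower without +Al replicate 1 and 1 higher and 14 lower without +Al replicate 2. After rescaling, 2 of the rises and 12 of the falls were still called. The most abundant called factor (Cs4g07040) had 169.6 and 215 FPKM in +Al roots, against 634.8 and 535 FPKM in control roots (log2 fold change -1.61, SE 0.20, adjusted p = 4.54e-08 by limma). ACC synthase (Cs5g03060), which sets ethylene production, had 14.3 and 22.7 FPKM in +Al roots, against 42.6 and 38.7 FPKM in control roots (log2 fold change -1.17, SE 0.28, adjusted p = 0.00268, but 0.0503 to 0.306 without control replicate 1, control replicate 2 or +Al replicate 1). Jasmonate genes fell in 5 of 24 cases and rose in 1. The calls were 0 higher and 3 lower without control replicate 1 and 0 higher and 5 lower without control replicate 2 or +Al replicate 2. Lipoxygenase 3 (Cs1g17380), which starts the pathway, had 19.8 and 38.5 FPKM in +Al roots, against 154 and 134 FPKM in control roots (log2 fold change -2.38, SE 0.27, adjusted p = 6.27e-09). Allene oxide synthase (Cs3g24230), the next enzyme, had 72.1 and 92.6 FPKM in +Al roots, against 259 and 280.1 FPKM in control roots (log2 fold change -1.72, SE 0.22, adjusted p = 1.05e-07). The repressor TIFY 5A-like (Cs2g03240), which jasmonate itself induces, had 1.87 and 3.803 FPKM in +Al roots, against 26.7 and 14.5 FPKM in control roots (log2 fold change -2.83, SE 0.37, adjusted p = 1.19e-07, but 0.0652 without +Al replicate 1).

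Auxin genes fell in 6 of 61 cases and rose in 0. Counts were 1 higher and 4 lower without +Al replicate 1. An indole-3-acetic acid-induced protein ARG2-like gene (Cs5g33320) had 263 and 357 FPKM in +Al roots, against 799 and 707 FPKM in control roots (log2 fold change -1.29, SE 0.19, adjusted p = 1.71e-06). An auxin response factor, which reads the hormone signal, was lower as well. The auxin response factor 23-like gene (Cs5g32400) had 0.159 and 0.114 FPKM in +Al roots, against 4.32 and 4.04 FPKM in control roots (log2 fold change -4.18, SE 0.68, adjusted p = 1.05e-05). Abscisic acid and dehydration genes were called in both directions, 5 higher and 5 lower of 26. The counts became 3 higher and 2 lower without control replicate 1 or control replicate 2 or +Al replicate 1 and 3 higher and 3 lower without +Al replicate 2. After rescaling, 5 of the rises and 3 of the falls were still called. The abscisic acid stress ripening-related proteins rose, the most abundant (Cs3g21500) with 373 and 488 FPKM in +Al roots, against 126 and 149 FPKM in control roots (log2 fold change 1.64, SE 0.21, adjusted p = 8.97e-08); its neighbour Cs3g21510 may share reads with it. Among 34 gibberellin and cytokinin genes 3 rose and 3 fell. They became 1 higher and 7 lower without +Al replicate 2. A gibberellin 20 oxidase 1-like gene (Cs1g13750), of the late enzymes of gibberellin synthesis, had 119.5 and 198 FPKM in +Al roots, against 61.3 and 48.98 FPKM in control roots (log2 fold change 1.49, SE 0.25, adjusted p = 1.68e-05). GA-stimulated transcript-like protein 5 (Cs6g21260) had 315 and 146 FPKM in +Al roots, against 1054 and 797 FPKM in control roots (log2 fold change -2.09, SE 0.23, adjusted p = 2.98e-09). Genes tied to gibberellin thus moved in both directions. Cytokinin-regulated kinase 1 (Cs5g17510) had 0.931 and 1.07 FPKM in +Al roots, against 14.5 and 14.8 FPKM in control roots (log2 fold change -3.74, SE 0.39, adjusted p = 9.58e-10).

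Transcription factor families were called in both directions. WRKY factors, regulators of defence, fell in 5 and rose in 2 of 28 cases. The calls were 2 higher and 3 lower without control replicate 1 or control replicate 2 or +Al replicate 1. After rescaling, 1 of the rises and 5 of the falls were still called. WRKY transcription factor 17 (Cs6g09420) had 11.1 and 17.6 FPKM in +Al roots, against 74.6 and 58.8 FPKM in control roots (log2 fold change -2.24, SE 0.28, adjusted p = 7.73e-08 by limma). A WRKY 70-like gene (Cs6g10120) had 44.7 and 60.7 FPKM in +Al roots, against 11.7 and 9.02 FPKM in control roots (log2 fold change 2.34, SE 0.29, adjusted p = 4.21e-08). The other WRKY gene called higher, Cs8g07500, was listed above 0 in +Al replicate 1 alone, at 85.4 FPKM, and was not called after rescaling. MYB factors fell in 9 and rose in 5 of 54 cases. Counts were 1 higher and 5 lower without control replicate 1, 1 higher and 6 lower without control replicate 2, 3 higher and 6 lower without +Al replicate 1 and 1 higher and 7 lower without +Al replicate 2. A transcriptional activator Myb-like gene (Cs3g23950) had 13.5 and 21.96 FPKM in +Al roots, against 146 and 147 FPKM in control roots (log2 fold change -3.08, SE 0.26, adjusted p = 6.63e-12). An R2R3-MYB factor (Cs3g23070) had 144 and 215 FPKM in +Al roots, against 468 and 468 FPKM in control roots (log2 fold change -1.41, SE 0.21, adjusted p = 1.72e-06). Of 25 NAC factors 2 rose and 4 fell. The counts became 0 higher and 2 lower without control replicate 1, 1 higher and 3 lower without control replicate 2, 1 higher and 1 lower without +Al replicate 1 and 1 higher and 2 lower without +Al replicate 2. After rescaling, 2 of the rises and 3 of the falls were still called. The root apex list had 1 called member, scarecrow-like protein 4-like (Cs1g24030). It was matched by a word of its description, which does not make it a regulator of the tip. It had 6.33 and 8.84 FPKM in +Al roots, against 34.7 and 34.5 FPKM in control roots (log2 fold change -2.19, SE 0.30, adjusted p = 3.52e-07 by limma). Outside the lists, 2 adjacent genes described as SENSITIVE TO PROTON RHIZOTOXICITY 1-like, the STOP1 type of zinc finger, were named after their values were seen. XLOC_021891 had 34 and 45.3 FPKM in +Al roots, against 0.938 and 0.726 FPKM in control roots (log2 fold change 5.41, SE 0.35, adjusted p = 3.41e-15) and XLOC_021890 had 25.9 and 32.4 FPKM in +Al roots, against 2.72 and 2.58 FPKM in control roots (log2 fold change 3.40, SE 0.32, adjusted p = 1.08e-10), and they may share reads.

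Defence proteins and resistance receptors were counted as 2 lists. Chitinases and pathogenesis-related proteins fell in 10 and rose in 1 of 28 cases, and 7 falls but not the rise were called after rescaling. They became 1 higher and 3 lower without control replicate 1, 2 higher and 4 lower without control replicate 2, 2 higher and 12 lower without +Al replicate 1 and 0 higher and 9 lower without +Al replicate 2. An acidic endochitinase (orange1.1t00435), which cuts fungal walls, had 6.01 and 2.16 FPKM in +Al roots, against 91.1 and 108 FPKM in control roots (log2 fold change -4.74, SE 0.33, adjusted p = 2.51e-14 by limma). Pathogenesis-related protein 10.5 (Cs9g03600), the most abundant, had 86.9 and 88.4 FPKM in +Al roots, against 478 and 417 FPKM in control roots (log2 fold change -2.35, SE 0.21, adjusted p = 1.78e-11). The median gap between the +Al replicates was only -0.0092 in this list. NBS-LRR resistance proteins, immune receptors inside the cell, rose in 7 and fell in 1 of 81 cases, with 4 of the rises called after rescaling. The calls were 6 higher and 2 lower without control replicate 1, 1 higher and 2 lower without control replicate 2 or +Al replicate 2 and 4 higher and 0 lower without +Al replicate 1. Here the +Al replicates differed most, by a median of -0.67. Besides the NB-LRR gene named first (XLOC_003018), Cs1g12170 had 5.18 and 6.85 FPKM in +Al roots, against 1.65 and 1.55 FPKM in control roots (log2 fold change 1.83, SE 0.42, adjusted p = 0.00141, but 0.051 to 0.127 without control replicate 1, control replicate 2 or +Al replicate 2). A defensin-like protein 19-like gene (XLOC_029963), of small antimicrobial peptides, was among the 10 most abundant genes of both +Al libraries, with 4828 and 5705.6 FPKM in +Al roots, against 1376 and 1235 FPKM in control roots (log2 fold change 2.01, SE 0.15, adjusted p = 7.02e-14).

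Histones and genes of the cytoskeleton were called less often than all genes tested, with 0 calls and 3.9% of members. In the list of cell cycle and DNA replication 9.0% were called, nearer the share of all genes, and its share of rises was not below theirs. Of 67 genes of cell cycle and DNA replication 5 rose and 1 fell. Counts were 3 higher and 0 lower without control replicate 1, 2 higher and 0 lower without control replicate 2 or +Al replicate 2 and 1 higher and 0 lower without +Al replicate 1. After rescaling, 4 of the rises and 1 of the falls were still called. None of 21 histones, which are made in dividing cells, was called by limma (4 with an unadjusted p under 0.05), but 1 was higher without +Al replicate 1 and 1 lower without +Al replicate 2. A cyclin-dependent kinase 12-like gene (Cs5g32830) had 73.2 and 76.4 FPKM in +Al roots, against 22 and 23.4 FPKM in control roots (log2 fold change 1.72, SE 0.26, adjusted p = 2.62e-06). Of 103 cytoskeleton genes 1 rose and 3 fell, among them alpha tubulin (Cs8g03680), with 129.5 and 107 FPKM in +Al roots, against 283 and 268 FPKM in control roots (log2 fold change -1.23, SE 0.21, adjusted p = 3.12e-05). The counts became 0 higher and 2 lower without control replicate 1 and 1 higher and 1 lower without control replicate 2.

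The KEGG pathway labels in the files gave a second grouping of the same genes. Some labels lost calls after rescaling. The falls still called were 4 in Fatty acid biosynthesis, 10 in Amino sugar and nucleotide sugar metabolism and 1 in Carotenoid biosynthesis. Starch and sucrose metabolism kept 5 rises and 10 falls. Ribosome (155 tested, 1 higher and 1 lower), Spliceosome (84 tested, 1 and 1), RNA transport (93 tested, 2 and 1) and Ubiquitin mediated proteolysis (77 tested, 1 and 0) held few called genes. Carotenoid biosynthesis had 6 of 24 genes higher and 2 lower, with 5 higher and 1 lower without control replicate 1, 2 higher and 1 lower without control replicate 2, 4 higher and 1 lower without +Al replicate 1 and 2 higher and 2 lower without +Al replicate 2. Terpenoid backbone biosynthesis had 6 of 30 higher and 1 lower, with 5 higher and 2 lower without +Al replicate 1. Flavonoid biosynthesis had 5 of 24 higher and 0 lower, with 3 higher and 1 lower without +Al replicate 2. Glycerophospholipid metabolism had 5 of 40 genes higher and 0 lower, with 2 higher and 0 lower without control replicate 1 or control replicate 2 and 3 higher and 0 lower without +Al replicate 2. Falls outnumbered rises under a larger set of other labels, of which 4 are given here. Each of these 4 counts depended on single libraries. Fatty acid biosynthesis had 5 of 21 lower and 0 higher, with 0 higher and 2 lower without control replicate 1, 0 higher and 1 lower without control replicate 2 and 0 higher and 3 lower without +Al replicate 1. The Citrate cycle had 4 of 27 lower and 0 higher, with 0 higher and 2 lower without control replicate 1, 0 higher and 1 lower without control replicate 2 and 0 higher and 7 lower without +Al replicate 2. Amino sugar and nucleotide sugar metabolism had 11 of 60 lower and 1 higher, with 1 higher and 3 lower without control replicate 1 or control replicate 2 and 2 higher and 10 lower without +Al replicate 1. Plant-pathogen interaction had 10 of 77 lower and 2 higher, with 2 higher and 4 lower without control replicate 1, 3 higher and 6 lower without +Al replicate 1 and 1 higher and 9 lower without +Al replicate 2.

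The difference between the 2 +Al libraries was also set out by gene list. Lists differ in expression level, with which the gap changed as well, and the parts of level and function were not tested. Median gaps between +Al replicates 1 and 2 ran from -0.67 in NBS-LRR resistance proteins, -0.56 in ABC transporters and -0.55 in receptor-like kinases to -0.07 in class III peroxidases, -0.04 in cytosolic ribosomal proteins and 0.00 in protease inhibitors. Those of the control replicates lay between -0.12 and 0.23 over the same lists. One factor per library therefore could not remove the gap from every list. A few genes were far higher in +Al replicate 1 than elsewhere. The gene orange1.1t01308, without a description, had 27084 and 1193 FPKM in +Al roots, against 1168 and 3546 FPKM in control roots. The gene orange1.1t03320, without a description, had 8881 and 358 FPKM in +Al roots, against 370.2 and 1237 FPKM in control roots. Cs1g26280, described as cytochrome P450 like_TBP, had 4212 and 185.6 FPKM in +Al roots, against 162 and 555 FPKM in control roots. Together these 3 took 5.63% of the FPKM of +Al replicate 1 and 0.218% of replicate 2, against 0.198% and 0.643% of the control libraries. None of the 3 was called. The 10 most abundant genes held 12.4% and 7.73% of the FPKM of the +Al libraries, against 9.24% and 10.04% of the control libraries. In 40 genes +Al replicate 1 was listed at 0 where replicate 2 had 10 FPKM or more, and in 15 genes the reverse, against 21 and 33 genes for control replicates 1 and 2. The described ones with the highest level were a homogentisate phytyltransferase 1 gene (orange1.1t05726), 0 and 6532 FPKM in +Al roots, against 0 and 13305 FPKM in control roots, a NAC transcription factor 055 (orange1.1t05608), 0 and 321 FPKM in +Al roots, against 121 and 205 FPKM in control roots, the FtsZ and cytochrome b-c1 genes above, and a calcium-transporting ATPase 4 (orange1.1t04914), 123 and 0 FPKM in +Al roots, against 0 FPKM in both control libraries. The NAC 055 and calcium-transporting ATPase 4 genes were called as deposited and not after rescaling. Values of this kind can be failed estimates, and no change with Al is read from them. Their part in the offset was not tested.

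**Figure D5:**
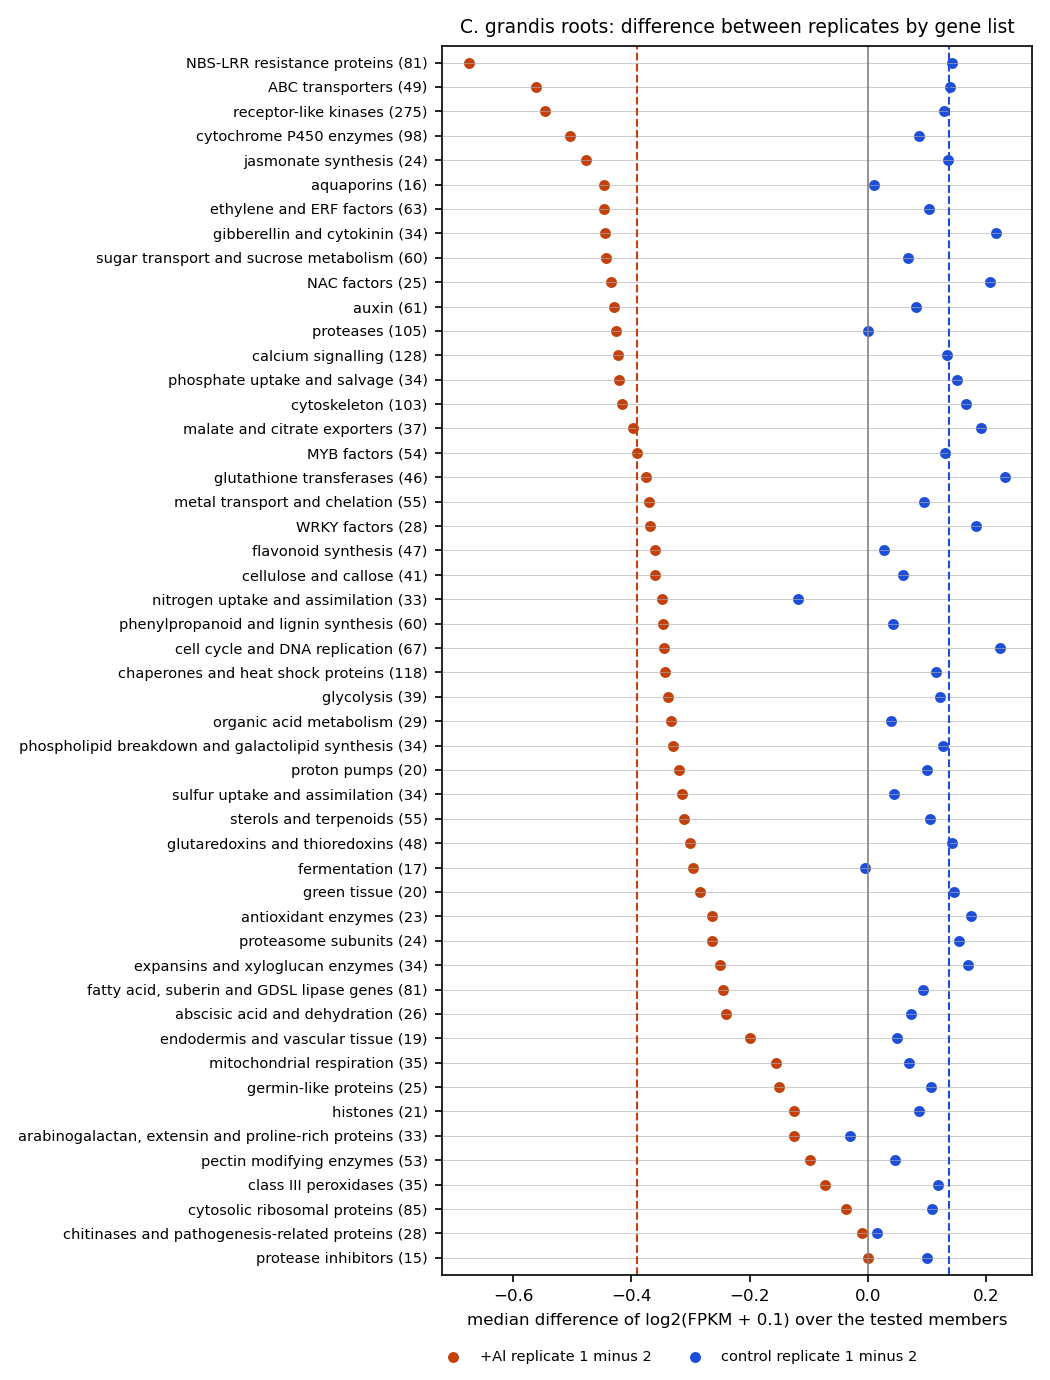
Median difference of log2(FPKM + 0.1) between replicates 1 and 2 (horizontal axis) over the tested members of each gene list, for +Al roots and control roots of C. grandis, with dashed lines at the medians over all genes, -0.39 and 0.14. Lists at the top, such as NBS-LRR resistance proteins at -0.67, have the largest gap between the +Al libraries, and protease inhibitors, chitinases and ribosomal proteins at the bottom have a gap near 0.

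The response of C. grandis was set against that of C. sinensis by a test of the difference in 1 fit of all 8 libraries, called by its adjusted p alone. Of 20158 genes tested, 3542 (17.6%) responded differently. The difference, taken as C. grandis minus C. sinensis, was above 0 in 1263 of them (6.27%) and below 0 in 2279 (11.3%), and after rescaling in 2847 and 3190. Leaving out 1 library gave between 1161 genes, without C. sinensis control replicate 1, and 7166 genes, without C. grandis +Al replicate 1. The split between directions thus depended on the scaling of the libraries. Of the genes called in C. grandis 454 of the 972 risen and 827 of the 1354 fallen differed in the same direction from C. sinensis. By list, 17 of 34 expansins and xyloglucan enzymes, 24 of 53 pectin genes, 17 of 33 arabinogalactan, extensin and proline-rich proteins and 9 of 16 aquaporins had a lower response in C. grandis than in C. sinensis, and 54 of 85 ribosomal protein genes did, none of which was called within C. grandis. In the metal list 12 of 55 had a higher response in C. grandis and 3 a lower one. A higher response can here be a smaller fall. Median log2 fold changes in C. grandis and C. sinensis were -0.21 and -0.48 for metals and -0.79 and -0.46 for aquaporins. They were -1.17 and -0.01 for expansins and xyloglucan enzymes, -0.54 and 0.34 for pectin, and -0.43 and 0.18 for the wall proteins. For ribosomal proteins they were -0.34 and 0.38. For FRD3b (Cs7g01770) the difference was 1.13 (SE 0.25, adjusted p = 0.0194 by limma), with 260 and 248 FPKM in +Al roots, against 26.1 and 25.1 FPKM in control roots in C. sinensis. SPX domain gene 2 (Cs4g17870) differed by 1.90 (SE 0.25, adjusted p = 0.00265 by limma), with 114 and 95.3 FPKM in +Al roots, against 35.2 and 36.1 FPKM in control roots in C. sinensis, and expansin-like B1 (XLOC_004133) by -1.12 (SE 0.6, adjusted p = 0.238 by limma), which was not called. The ALMT gene Cs6g12780 differed by 1.48 (SE 0.81, adjusted p = 0.25 by limma), also not called, with 21.7 and 19.1 FPKM in +Al roots, against 0.0827 and 0.345 FPKM in control roots in C. sinensis.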

How the data were processed

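Poly(A) RNA of root tips was sequenced as paired ends in 8 libraries, of which the 4 of C. grandis were used here, with those of C. sinensis for the difference between species. The authors removed ribosomal reads with Bowtie, mapped the rest to the C. sinensis genome with TopHat2 and estimated levels with Cufflinks, and the deposited values are FPKM per gene. The submitters' processing notes also name edgeR 3.0.0 and R 2.1.5. Versions of the mapping tools and the genome build were not given in the sources used here. The deposited table holds no counts and the study's read totals were not used here, so neither counting intervals nor a count test could be given, although a count test had been preferred in the design. Columns of the authors' own comparisons (fold changes and p-values) were not used.

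Libraries were grouped by GEO's labels. Genes that averaged 1 FPKM or more in either group were compared on log2(FPKM + 0.1) by limma 3.58.1 with a trend of the spread (R 4.3.3), without a replicate block, with Benjamini-Hochberg adjustment, and called at an adjusted p up to 0.05 with log2 fold changes of 1 or more in size. The code was tested on simulated data. Tables were made with Python 3.11.15 and pandas 2.3.3. Alternatives were another scaling, filter, pseudocount, fold limit and model, the replicate block and the omission of each library. A replicate listed at 0 beside a partner of 10 FPKM or more was taken as a possible failed estimate. Named genes were the 10 largest rises and 10 largest falls among described genes with at least 5 FPKM, the most abundant and the most changed called members of each list, defining transporters and enzymes of a pathway, the 5 described genes with the highest level that were at 0 in 1 +Al library alone, and the most abundant +Al genes. Further called members of a list were named after their values were seen. The comparison, the 52 keyword lists, the 30 pathway labels and the named members were chosen with earlier results of these data known.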

Additional observations from a re-analysis of the deposited data

Results flagged for a closer look

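Of the 20 largest changes in C. grandis, 8 had a response that differed from that of C. sinensis by limma over all 8 libraries, and each difference is taken as C. grandis minus C. sinensis on the log2 scale. The difference was 6.41 (SE 0.48, adjusted p = 3.96e-04) for the uncharacterized gene orange1.1t05272, which had 88.04 and 92.6 FPKM in +Al roots, against 58.7 and 102 FPKM in control roots in C. sinensis. For the glycine--tRNA ligase orange1.1t05636 it was -8.31 (SE 0.86, adjusted p = 0.00109), with 21.6 and 49.8 FPKM in +Al roots, against 20.1 and 70.6 FPKM in control roots in C. sinensis. Neither gene was listed above 0 in the C. grandis group in which it was low. The cytochrome P450 71A1 gene orange1.1t05688 differed by 5.76 (SE 1.6, adjusted p = 0.0413) and was listed at 0 in all 4 C. sinensis libraries. The NB-LRR gene XLOC_003018 differed by 4.06 (SE 0.88, adjusted p = 0.0184) and monogalactosyldiacylglycerol synthase 2 (Cs7g06070) by 3.91 (SE 0.91, adjusted p = 0.0235), with 0.3 and 0.162 FPKM in +Al roots, against 0 FPKM in both control libraries for the synthase in C. sinensis. Glucuronidase 3 (Cs7g05750) rose in both species, and the difference was 1.79 (SE 0.47, adjusted p = 0.0363), with 45.7 and 39.9 FPKM in +Al roots, against 0.957 and 0.793 FPKM in control roots in C. sinensis. The ammonium transporter 2 genes fell further in C. grandis. Their differences were -3.36 (SE 0.44, adjusted p = 0.0027) for Cs5g30580, with 1.84 and 2.73 FPKM in +Al roots, against 14.9 and 13.8 FPKM in control roots in C. sinensis, and -3.85 (SE 0.97, adjusted p = 0.0314) for orange1.1t01808, with 0.213 and 0 FPKM in +Al roots, against 0.761 and 1.02 FPKM in control roots in C. sinensis.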

How the results depend on the processing

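The numbers of higher and lower genes were within 1.5 times of 972 and 1354 after rescaling, with no filter (672 and 1119), from 5 FPKM (690 and 1081), with a pseudocount of 1 (919 and 1274) or 0.01 (896 and 1286), and with all 8 libraries in 1 fit (931 and 1356). With a fold limit of log2 2 they were 364 and 546. Leaving out 1 library gave 434 to 712 higher and 772 to 1369 lower genes as deposited. With rescaled libraries it gave 612 and 544 higher genes without +Al replicates 1 and 2, and 0 higher and 0 lower genes without a control replicate. Those last fits held 1 control library each, so a count of 0 there does not show a lack of change. No other tool was run. The labels state no pairing of same-numbered libraries. Their deviations correlated at 0.04 over genes, which cannot exclude a shared step that touched some of the genes. The replicate block gave 660 higher and 1059 lower genes. The number of genes whose response differed between the species was 3542, against 6037 after rescaling, 1867 with the replicate block and 1161 to 7166 with a library left out. The median gap between the +Al replicates was -0.35 with a pseudocount of 1 and -0.0043 after rescaling. The NAC transcription factor 055 gene (orange1.1t05608) changed sign without +Al replicate 1, to 1.02 and, rescaled, 0.85, and ranged down to -10.62. The homogentisate phytyltransferase gene (orange1.1t05726) did so without control replicate 2, to 8.0, and ranged down to -9.02. Apart from the omissions that show it, the cause was not tested. Depth limits the low genes, for which no counting error could be given.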
